A study of Rattus norvegicus with 24 samples.

Results

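Perilesional cortex, the tissue bordering a cortical lesion, was compared between 6 rats with traumatic brain injury (TBI) and 6 sham-operated controls, 12 of the 24 small RNA libraries of the study. The libraries were taken by their source label, 1 per rat, and the other 12 came from the ipsilateral thalamus of the same rats. All were adult male Sprague-Dawley rats, and tissue was dissected 3 months after surgery. Injured rats had received lateral fluid-percussion injury, a pressure wave of fluid onto the intact dura through an opening in the skull over the left parietal cortex, and shams the same anesthesia and operation with no impact. Injured rats had been selected by magnetic resonance imaging for a chronic inflammatory rim around the lesion, so the comparison holds for such rats and not for injury in general. RNA came from whole dissected tissue with all its cell types. Measured in each library were 728 miRNAs and 444 tRNA features, a tRNA feature being all fragments assigned to 1 annotated tRNA gene. Of these, 156 miRNAs and 84 tRNA features had no read in any cortex library.

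A miRNA is cut from a hairpin whose arms each give a mature strand, named 5p and 3p. The strand loaded into an Argonaute protein pairs with messenger RNAs mainly through its seed, bases 2 to 8, so miRNAs with the same seed form a family that can bind the same sites. Cortex is rich in miRNAs that neurons make, among them miR-128, miR-9 and miR-124, in the activity-regulated pair miR-132 and miR-212, whose shared gene is a target of the transcription factor CREB, and in the large imprinted miRNA cluster between Dlk1 and Dio3. Mature tRNAs carry amino acids to the ribosome and are cut by nucleases such as angiogenin under stress, which gives tRNA fragments. Each is named here by its amino acid and anticodon.

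The libraries held 744564 to 4069284 miRNA reads (two-sided exact permutation p = 0.589 between the groups). Where the library with the fewest reads holds none of a miRNA, its level may still be as high as 4.03 CPM (counts scaled to 1000000 reads per library), a limit from counting error alone. tRNA made up 12.9% ± 4.01 of reads in TBI and 10.6% ± 2.87 in sham (SD, n = 6 each, exact permutation p = 0.279, two-sided). miR-128-3p alone took 17.3 to 20.8% of miRNA reads in TBI and 20.9 to 32.8% in sham, with no overlap. The most abundant miRNAs were miR-128-3p and miR-9a-5p, both of neural cells. Levels below are CPM after trimmed mean of M-values (TMM) scaling, which sets most miRNAs level between libraries. Where levels of a group are given in a row of 3, they are the lowest, median and highest of its 6 rats. Scaling by library size alone moved the median log2 fold change (log2FC, TBI over sham, given ± SE) of all miRNAs from 0.05 to 0.25, so each change is relative to the other miRNAs. Each miRNA ligates and amplifies with its own efficiency, and levels were therefore compared between groups and not between miRNAs. TBI rat 45 stood apart from the other TBI rats in the summed level of several lists. Its vascular miRNAs summed to 56919 CPM against 38419 to 42989 CPM in the other TBI rats, its miR-34 family to 1347 CPM against 410.5 to 702 CPM in the other TBI rats and its miR-135 family to 199 CPM against 301 to 402 CPM in the other TBI rats, and its epithelial and choroid plexus lists are given beside miR-375-3p and miR-211-5p.

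The sequences that carry the results are given first, from RefSeq (assembly GRCr8), 5′ to 3′, with the seed in capitals. The first set is the family of miR-17, whose members lie in the miR-17-92 cluster and its paralogs and share 1 seed.
miR-17-5p: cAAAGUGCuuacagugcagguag
miR-20a-5p: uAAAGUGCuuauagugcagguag
miR-93-5p: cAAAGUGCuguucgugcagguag
miR-106b-5p: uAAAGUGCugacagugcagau

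The second set shows the arms of the neighbouring miR-132 and miR-212 hairpins. The 3p arms share a seed, and the 5p arms have seeds that differ from it and from each other.
miR-132-3p: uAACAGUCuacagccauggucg
miR-212-3p: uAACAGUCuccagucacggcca
miR-132-5p: aCCGUGGCuuucgauuguuacu
miR-212-5p: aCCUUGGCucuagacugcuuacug

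The third set holds the other families of more than 1 tested member whose summed reads differed between groups, in the order miR-23, miR-15/16, miR-125, miR-103/107 and miR-1/206.
miR-23a-3p: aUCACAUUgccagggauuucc
miR-23b-3p: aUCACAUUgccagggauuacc
miR-16-5p: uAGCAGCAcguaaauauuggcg
miR-195-5p: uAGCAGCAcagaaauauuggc
miR-15b-5p: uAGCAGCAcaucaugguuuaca
miR-497-5p: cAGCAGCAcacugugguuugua
miR-322-5p: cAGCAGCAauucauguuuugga
miR-125a-5p: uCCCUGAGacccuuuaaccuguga
miR-125b-5p: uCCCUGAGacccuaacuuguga
miR-351-5p: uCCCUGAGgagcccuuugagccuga
miR-103-3p: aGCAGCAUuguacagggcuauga
miR-107-3p: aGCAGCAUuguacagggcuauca
miR-1-3p: uGGAAUGUaaagaaguguguau
miR-206-3p: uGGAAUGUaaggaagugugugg

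The fourth set holds the remaining miRNAs past the threshold, higher ones first, each the single tested member of its seed family or, for miR-25-3p, miR-211-5p and miR-146b-5p, a member of a family whose sum did not pass.
miR-375-3p: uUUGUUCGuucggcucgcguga
miR-211-5p: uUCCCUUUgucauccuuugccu
miR-135a-3p: uGUAGGGAuggaagccaugaaa
miR-339-5p: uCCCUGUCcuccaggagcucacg
miR-199a-3p: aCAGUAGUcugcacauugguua
miR-374-5p: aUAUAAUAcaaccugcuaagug
miR-25-3p: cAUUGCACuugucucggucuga
miR-128-3p: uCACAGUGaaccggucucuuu
miR-130b-5p: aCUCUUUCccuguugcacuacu
miR-409a-3p: aAUGUUGCucggugaacccc
miR-543-3p: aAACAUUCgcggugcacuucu
miR-146b-5p: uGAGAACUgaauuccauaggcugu
miR-495: aAACAAACauggugcacuucuu
miR-127-3p: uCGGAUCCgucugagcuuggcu

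The first comparison asked which miRNAs differed between injured and sham cortex. Of 371 miRNAs with enough reads to test, 22 (5.93%) passed the quasi-likelihood test of edgeR at an adjusted p of 0.05. Of these 11 rose and 11 fell after injury, 2.96% of those tested in each direction. Those that rose included 4 miRNAs of the miR-17-92 cluster and its paralogs, and those that fell 3 strands of the activity-regulated miR-132 and miR-212 and 4 of the imprinted Dlk1-Dio3 cluster. Below, passed, rose and fell refer to edgeR with TMM unless another setting is named. For 10 of 371 miRNAs (2.7%) the 6 TBI rats and the 6 sham rats did not overlap, 5 with injured rats above (1.35%) and 5 with them below (1.35%). In tissue RNA, fewer cells of a type and less of a miRNA per cell cannot be told apart. When libraries were scaled by their totals alone, 36 rose and 3 fell, the latter being miR-132-5p, miR-212-5p and miR-128-3p. The count fell to 6, 11 and 12 without TBI rats 24, 45 and 52, and to 7, 8, 4 and 5 without sham rats 26, 32, 38 and 50. miR-132-5p, miR-212-5p, miR-20a-5p and miR-339-5p passed in all 12 fits that each left out 1 rat. The other 18 passed in 3 to 10 of those fits. In the authors' droplet digital PCR of the same samples, none of the miRNAs that passed in every fit reached significance. Most of the other cortical candidates they tested did not reach it either. Among the candidates without significance, most changed in the same direction as in sequencing.

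**Figure D1:**
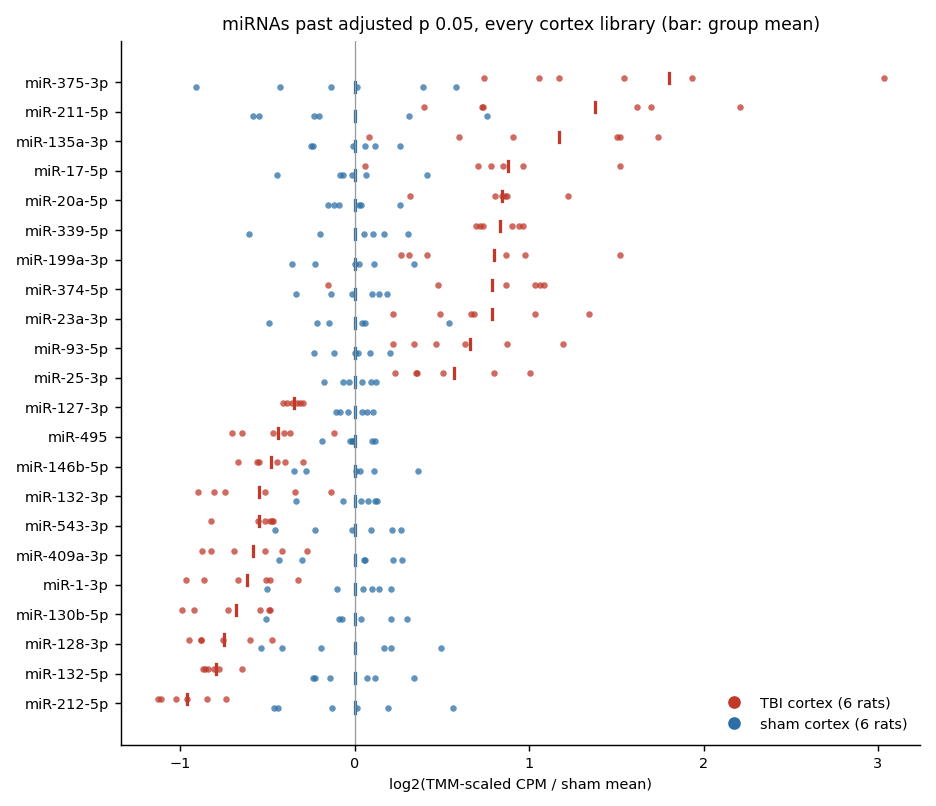
Each point is 1 cortex library, placed by the log2 of its TMM-scaled CPM over the sham mean of that miRNA, with TBI in red, sham in blue and bars at group means (6 rats each). The 22 miRNAs past the threshold are ordered by change, from miR-212-5p (-0.96) to miR-375-3p (1.78), and 1 TBI library of miR-375-3p lies far to the right.

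Among the activity-regulated miRNAs, 3 of 8 tested fell in TBI and none rose, where 11 of 371 (2.96%) fell over all tested. The lowest, median and highest levels of miR-132-5p were 1007, 1041 and 1178 CPM in injured rats against 1558, 1799 and 2326 CPM in shams, a log2FC of -0.80 ± 0.12 (adjusted p = 0.00410) in edgeR. Those of miR-212-5p were 652, 716 and 856 CPM in injured rats against 1037, 1372 and 2105 CPM in shams, with a log2FC of -0.96 ± 0.17 (adjusted p = 0.00609). In both, each TBI rat lay below each sham rat. miR-132-3p, the strand best known for its role in dendrite growth, was at 1639, 1981 and 2781 CPM in injured rats against 2425, 3178 and 3343 CPM in shams, and its log2FC was -0.55 ± 0.15 (adjusted p = 0.0355), with overlapping groups. miR-212-3p, which shares the seed of miR-132-3p, had one of -0.23 (adjusted p = 0.516) and did not pass. The other tested members were the strands of miR-134, which restrains dendritic spines, and miR-379, both of the Dlk1-Dio3 cluster, with log2FCs of -0.32 to 0.27 and no call. The median log2FC of the 8 was -0.30, against 0.05 over all 371 tested, and with library size scaling it was -0.07 against 0.25.

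miR-128-3p, a neuronal miRNA that restrains excitability, was at 152842, 167499 and 212879 CPM in injured rats against 203558, 295211 and 416995 CPM in shams, a log2FC of -0.75 ± 0.16 (adjusted p = 0.0240). The groups overlapped at the lowest sham rats, and the shams spread more widely than the injured rats. In edgeR it was the single call among 23 tested neuron-enriched miRNAs, of which 11 had a positive and 12 a negative log2FC. miR-9a-5p, made in neurons and their progenitors, had one of -0.27 (adjusted p = 0.262), and miR-124-3p, the most specific to neurons, one of 0.15 (adjusted p = 0.613). miR-128-1-5p, the other strand from 1 of the miR-128 hairpins, had one of -0.06 (adjusted p = 0.922). miR-7b, a neuronal and neuroendocrine miRNA, also passed with a positive log2FC in DESeq2 (adjusted p = 0.0297) and with library size scaling (adjusted p = 0.0211). The list's median was -0.04 against 0.05 over all tested. The summed level of the list ran from 258157 to 346093 CPM in injured rats and from 326735 to 589073 CPM in shams, most of it miR-128-3p.

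The imprinted Dlk1-Dio3 cluster, expressed from the maternal chromosome and abundant in neurons, had 91 strands in the table, 67 of them tested, and 4 fell while none rose. Over all tested miRNAs 11 of 371 (2.96%) fell, and 22 (5.93%) passed in either direction. Of the 67, 53 had a negative log2FC, with a median of -0.24 against 0.05 over all tested. With library size scaling 36 of the 67 were negative, at a median of -0.03 against 0.25, and none passed. The list lay below the median of all miRNAs by a like amount under both scalings, and its direction against 0 depended on the scaling. miR-127-3p, which lies antisense to the imprinted gene Rtl1, was at 3691, 3862 and 4000.3 CPM in injured rats against 4566, 4915 and 5284 CPM in shams, a narrow range in both groups without overlap, with a log2FC of -0.35 ± 0.09 (adjusted p = 0.0355). miR-543-3p was at 1978, 2481 and 2537 CPM in injured rats against 2556, 3607 and 4224 CPM in shams, also without overlap, with a log2FC of -0.55 ± 0.13 (adjusted p = 0.0332). miR-409a-3p and miR-495 had log2FCs of -0.58 ± 0.15 (adjusted p = 0.0355) and -0.44 ± 0.12 (adjusted p = 0.0479), and their groups overlapped. miR-434-3p, the member with the largest mean, was at 7296 ± 770.1 CPM in injured rats against 8609 ± 1100.1 CPM in shams (SD, n = 6), and its adjusted p was 0.244. The summed level of all 91 ran from 36335 to 47263 CPM in injured rats and from 46945 to 55303 CPM in shams, so the highest TBI rat lay just above the lowest sham rat.

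The miR-17-92 cluster and its paralogs, known as oncomiRs that promote proliferation and survival, had calls in the other direction. Of 27 strands listed 13 were tested, 4 rose and none fell, where 11 of 371 (2.96%) rose over all tested. The list also holds miR-92b, whose 3p strand has the seed of miR-92a-3p, so it is not one of cluster members alone. All 13 had a log2FC above 0, from 0.40 to 0.89, and were also above 0 with library size scaling and in DESeq2. Some members, such as miR-17-5p and miR-20a-5p, differ at few bases, so reads may have passed between those. Their median was 0.57 against 0.05 over all tested. miR-20a-5p was at 174, 252 and 326 CPM in injured rats against 126, 136 and 167 CPM in shams, and each TBI rat lay above each sham rat. miR-17-5p was at 70.1, 118 and 193 CPM in injured rats against 49.3, 65.3 and 89.7 CPM in shams, with overlap, and had a log2FC of 0.89 ± 0.21 (adjusted p = 0.0332). For miR-93-5p the levels were 239, 300.4 and 470.1 CPM in injured rats against 174, 207 and 236 CPM in shams, and for miR-25-3p 330.2, 381 and 566 CPM in injured rats against 249.9, 283 and 307 CPM in shams. Neither pair of groups overlapped, and the log2FCs were 0.66 ± 0.17 (adjusted p = 0.0355) and 0.57 ± 0.15 (adjusted p = 0.0355). The most abundant members, miR-92b-3p and miR-92a-3p, had log2FCs of 0.67 (adjusted p = 0.216) and 0.53 (adjusted p = 0.154) and did not pass. Of the strands not tested, 4 had no read and the rest had at most 14 reads in a library. With the tRNA features in the same fit, 1 of the 4 calls was left and all 13 stayed above 0.

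**Figure D2:**
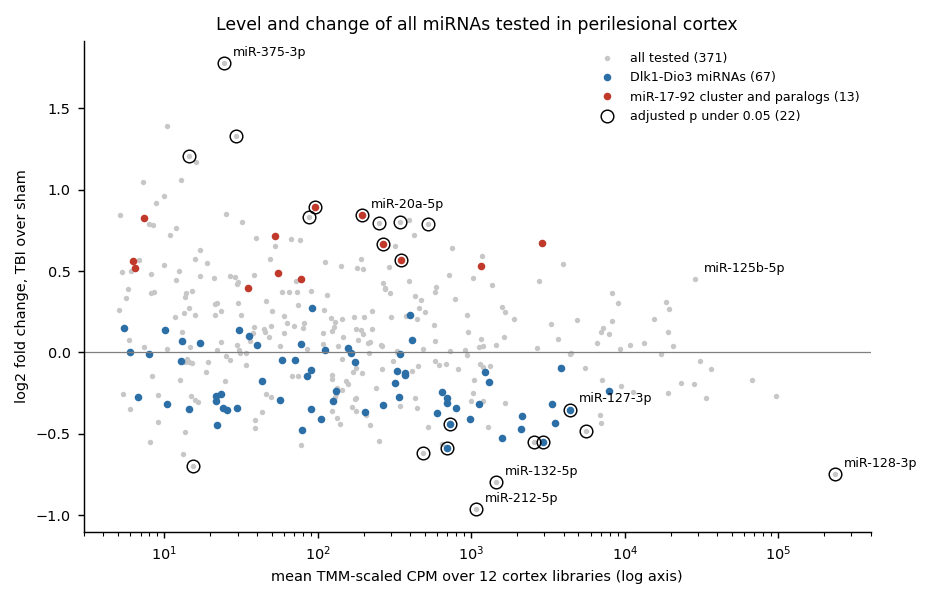
Each point is 1 of 371 miRNAs, with its mean TMM-scaled CPM over 12 cortex libraries on a log axis and its log2FC (TBI over sham) on the other, and rings mark adjusted p under 0.05. The 13 miR-17-92 miRNAs (red) all lie above 0 and most of the 67 Dlk1-Dio3 miRNAs (blue, 53) lie below it, under TMM scaling.

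The other 7 miRNAs that rose came from separate families. miR-375-3p, a miRNA of neuroendocrine and epithelial cells, was at 18.3, 28.3 and 89.7 CPM in injured rats against 5.82, 10.5 and 16.3 CPM in shams, with a log2FC of 1.78 ± 0.39 (adjusted p = 0.0240). The TBI rats lay above the sham rats throughout, but the highest value, of TBI rat 45, was far above the next, at 41.8 CPM. Without that rat the log2FC was 1.27 (SE 0.29, adjusted p = 0.0441). The 16 epithelial, sensory and neuroendocrine strands, with the miR-200 and miR-183 families, summed to 335 CPM in rat 45, to 50.3 to 67.4 CPM in the other TBI rats and to 34.3 to 54.1 CPM in sham, of which 4 were tested, 1 passed and 4 had no read. Their part in the result was not tested.

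miR-211-5p, made from a Trpm1 intron and close in sequence to miR-204-5p of choroid plexus, was at 21.3, 38.4 and 75.1 CPM in injured rats against 10.8, 13.9 and 27.5 CPM in shams, with overlap and a log2FC of 1.33 ± 0.34 (adjusted p = 0.0355). Without rat 45 it was 1.20 (adjusted p = 0.0778). miR-204-5p, with the same seed, had one of -0.09 (adjusted p = 0.899). The 12 ependymal and choroid plexus strands summed to 3316 CPM in rat 45, to 1232 to 1811 CPM in the other TBI rats and to 1122 to 2440.3 CPM in sham. Of these 6 were tested, 1 passed and 3 had no read, including both strands of miR-449c, a marker of multiciliated cells. Their part in the result was not tested.

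miR-339-5p was at 103, 112 and 124 CPM in injured rats against 41.8, 67.2 and 78.6 CPM in shams, without overlap, and had a log2FC of 0.83 ± 0.16 (adjusted p = 0.0105). miR-23a-3p, of the miR-23a, miR-27a and miR-24 cluster, was at 450.1, 616 and 980.3 CPM in injured rats against 275, 373 and 563 CPM in shams, with a log2FC of 0.79 ± 0.20 (adjusted p = 0.0355). miR-199a-3p, known from fibroblasts and mural cells and identical in sequence to miR-199b-3p, was at 302, 396 and 719 CPM in injured rats against 195, 253 and 318 CPM in shams, with a log2FC of 0.80 ± 0.21 (adjusted p = 0.0355). The groups of both overlapped. miR-374-5p had a log2FC of 0.79 ± 0.19 (adjusted p = 0.0332) and miR-135a-3p one of 1.20 ± 0.27 (adjusted p = 0.0251), the latter from 7 to 71 reads in injured rats against 7 to 24 in shams.

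Outside the neuronal groups, 3 miRNAs fell. miR-146b-5p, which targets adaptor proteins of Toll-like receptor signalling, was at 4108, 4633 and 5320.5 CPM in injured rats against 5138, 6626 and 8410.5 CPM in shams, with a log2FC of -0.48 ± 0.13 (adjusted p = 0.0355). miR-146a-5p, its relative with the same seed and a separate gene, was at 366, 514 and 729 CPM in injured rats against 173, 315 and 514 CPM in shams, with a log2FC of 0.72 ± 0.25 (adjusted p = 0.106) that did not pass. The paralogs thus had opposite signs, also with library size scaling (-0.26 and 0.88), and the difference between them was not tested. miR-1-3p, a miRNA of striated muscle, was at 299, 389 and 466 CPM in injured rats against 412, 615 and 676 CPM in shams, with a log2FC of -0.62 ± 0.15 (adjusted p = 0.0332). Of 9 muscle strands, 4 were tested and 4 had no read. Of those tested 3 were below 0 and 1 above, with a median log2FC of -0.36 against 0.05 over all tested. miR-133a-3p had a log2FC of 0.05 (adjusted p = 0.914), miR-206-3p one of -0.46 (adjusted p = 0.279) and miR-133b-3p one of -0.26 (adjusted p = 0.768). miR-130b-5p, the minor strand of its hairpin, had one of -0.70 ± 0.20 (adjusted p = 0.0497) from 10 to 41 reads per TBI library.

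Markers of other cells were counted beside these calls. Of 6 tested leukocyte and microglia miRNAs none passed in edgeR and 5 were above 0, with a median log2FC of 0.56 against 0.05 over all tested. miR-142-5p passed in DESeq2 (adjusted p = 0.0353), and with library size scaling miR-142-5p and miR-223-3p rose (adjusted p = 0.0339 and 0.0277), where the medians were 0.78 and 0.25. Their summed level ran from 833 to 1813 CPM in injured rats and from 759 to 1097 CPM in shams, miR-155-3p had no read, and their part in the results was not tested. miR-150-5p, a lymphocyte miRNA, and miR-142-5p, made in all blood cell lineages, had log2FCs of 0.46 (adjusted p = 0.154) and 0.58 (adjusted p = 0.0680), and miR-223-3p, of myeloid cells, one of 1.05 (adjusted p = 0.0584) from at most 29 reads per library. Inflammation-induced miRNAs had 8 tested, of which miR-146b-5p fell and none rose. Of these 5 were above 0 and 3 below, with a median log2FC of 0.22 against 0.05 over all tested. miR-21-5p, a miRNA of reactive glia, was at -0.01 (adjusted p = 0.983). miR-155-5p, counted in both lists, was at 0.84 (adjusted p = 0.196) from 2 to 24 reads per library. None of 4 oligodendrocyte, 6 vascular and 2 red cell miRNAs tested passed in edgeR or DESeq2, and with library size scaling miR-219a-2-3p of oligodendrocytes rose (adjusted p = 0.0413). Their most abundant members were miR-219a-2-3p (0.17) and miR-338-5p (0.09) of oligodendrocytes, miR-143-3p (-0.05) and miR-126a-3p (0.05) of mural and endothelial cells, and miR-451-5p (0.30) and miR-144-3p (-0.43) of red cells, values in parentheses being log2FCs.

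Most of the abundant miRNAs did not pass in edgeR. The 10 with the largest means held 60.6% of all cortical miRNA reads, and of them miR-128-3p alone passed there. miR-125b-5p was at 33257 ± 6347 CPM in injured rats against 24319 ± 2527 CPM in shams (SD, n = 6), with a log2FC of 0.45 ± 0.13 (adjusted p = 0.0530). It rose in DESeq2 (adjusted p = 0.00858), with a mean of at least 50 reads (0.0355) and with library size scaling (0.00898). The other 8, miR-9a-5p, miR-26a-5p, miR-99a-5p, miR-30d-5p, miR-143-3p, let-7f-5p, let-7i-5p and miR-181a-5p, had log2FCs of -0.28 to 0.04. In edgeR no call came from the let-7 (17 tested), miR-29 (5), miR-30 (11), miR-181 (6) or miR-99, miR-100 and miR-125 (10) families or from the Hox clusters (2). DESeq2 called miR-125b-5p among these, and library size scaling called miR-125b-5p, miR-125a-5p (0.0491) and miR-181b-5p (0.0481, adjusted p). The most abundant members of these not yet named were miR-29a-3p (-0.01), miR-29b-3p (-0.07), miR-30a-5p (-0.25), miR-181b-5p (0.20), miR-10a-5p (0.02) and miR-10b-5p (0.15), again as log2FCs. The PCR normalizers of the study (miR-378a-3p and miR-3594-3p beside let-7b-3p and miR-330-5p) were picked on these libraries and had log2FCs of 0.03 to 0.07.

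Reads were then summed over each seed family, which asks whether the pool of strands that can bind the same sites changed. Of 312 families tested, 22 passed in edgeR (7.05%), of which 12 rose (3.85%) and 10 fell (3.21%). The groups did not overlap in 12 families (3.85%), 7 with injured rats above (2.24%) and 5 below (1.6%). Of the 371 tested miRNAs 337 had a known sequence, and each miRNA without one counted as a family of its own. With these placed by name among relatives where possible, 25 of 305 families passed. Most families held a single tested miRNA, 37 held more, and 7 of these 37 passed, 5 higher and 2 lower. The calls repeat those of single miRNAs where a family has 1 member, so the families of several members carry what is added. In 5 families of the 22 no member had passed on its own in edgeR, and with library size scaling 25 rose and 3 fell. The count fell to 12 with no filter and to 11 with a mean of at least 50 reads. It fell to 8, 7, 9 and 11 without TBI rats 22, 24, 45 and 52, and to 7, 7, 14, 6 and 7 without sham rats 26, 32, 34, 38 and 50.

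The miR-17 family was the clearest of these. Its 4 tested members summed to 548, 727 and 919 CPM in injured rats against 364, 454 and 503 CPM in shams, and each TBI rat lay above each sham rat. The log2FC was 0.70 ± 0.13 (adjusted p = 0.0126), and the family passed in all 12 fits that left out 1 rat. The member log2FCs ran from 0.40 for miR-106b-5p to 0.89 for miR-17-5p, and miR-20a-5p and miR-93-5p gave most of the reads. The family of miR-25-3p and miR-92, which also holds miR-32-5p, had a log2FC of 0.63 ± 0.27 (adjusted p = 0.209). The miR-19 family had one of 0.48 ± 0.21 (adjusted p = 0.209), and neither passed.

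The miR-23 family rose, at 1243, 1411 and 1899 CPM in injured rats against 729, 966 and 1352 CPM in shams and a log2FC of 0.57 ± 0.16 (adjusted p = 0.0465), with overlapping groups. miR-23b-3p, from the paralogous cluster, had one of 0.47 (adjusted p = 0.102). miR-23a-3p and miR-23b-3p differ at few bases, so reads could be assigned to either and the sum is the safer value. All 9 tested strands of the miR-23, miR-27 and miR-24 clusters were above 0 (8 of 9 in DESeq2) and 1 passed. Their median was 0.11 against 0.05 over all tested. With the tRNA features in the same fit 5 of the 9 were below 0 and none passed, at a median of -0.01 against -0.07. miR-24-3p and miR-27b-3p, the most abundant, had log2FCs of 0.11 and 0.13.

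Families also rose of which no single member had passed in edgeR. In DESeq2 miR-16-5p (0.0242), miR-195-5p (0.0347), miR-125b-5p and miR-103-3p (0.0229) passed on their own, with adjusted p-values in parentheses. The miR-15/16 family, which represses cyclins and Bcl2, had 5 tested members, all above 0, and summed to 874, 986 and 1151 CPM in injured rats against 658, 756 and 865 CPM in shams, without overlap. Its log2FC was 0.40 ± 0.11 (adjusted p = 0.0469), and miR-16-5p gave 67.3% of its reads. The miR-125 family, homologs of the worm gene lin-4, summed to 45968, 53814 and 61763 CPM in injured rats against 37860.2, 42387 and 47105 CPM in shams, with overlap and a log2FC of 0.35 ± 0.10 (adjusted p = 0.0465). The miR-103/107 family, encoded in introns of pantothenate kinase genes, had one of 0.49 ± 0.14 (adjusted p = 0.0484), and miR-103-3p gave 90.9% of its reads. The miR-15/16 and miR-125 families passed in none of the 12 fits that left out 1 rat, and the miR-103/107 family in 1.

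The miR-223-3p family holds 1 tested miRNA and passed at an adjusted p of 0.0484 among families, where the single miRNA had 0.0584 among miRNAs. The family of miR-34b-3p and miR-34c-3p, of which only miR-34b-3p had enough reads for its own test, rose with a log2FC of 1.44 ± 0.41 (adjusted p = 0.0488). It was low, at 11.1, 18.2 and 42.0 CPM in injured rats against 1.07, 7.17 and 16.2 CPM in shams, from 1 to 26 reads per sham library. The 5p family of miR-34, targets of p53, had a log2FC of 0.45 ± 0.25 (adjusted p = 0.312), with miR-34c-5p at 0.81 (adjusted p = 0.154) and miR-34a-5p at -0.28 (adjusted p = 0.328), of opposite sign.

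The 2 families of several members that fell were those of miR-132-3p with miR-212-3p and of miR-1-3p with miR-206-3p. The first summed to 1833, 2098 and 2621 CPM in injured rats against 2703, 3306 and 3630.4 CPM in shams, without overlap, and had a log2FC of -0.56 ± 0.12 (adjusted p = 0.0164). Sums were scaled with the TMM factors of the family table, which differ from those of the miRNA table, so overlap in the 2 tables cannot be set side by side. The second was at 315, 422 and 526 CPM in injured rats against 445, 663 and 705 CPM in shams, with a log2FC of -0.61 ± 0.16 (adjusted p = 0.0370). In other families members had opposite signs and the sum did not pass in edgeR. The miR-146 family sum had a log2FC of -0.40 ± 0.14 (adjusted p = 0.113), and miR-135a-5p and miR-135b-5p, with 1 seed, had log2FCs of 0.52 (adjusted p = 0.0959) and -0.57 (adjusted p = 0.0930). DESeq2 called the miR-146 sum (adjusted p = 0.0333) and miR-135b-5p (0.0282), both lower. The let-7 family, 8 tested members, had one of -0.01 ± 0.11.

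**Figure D3:**
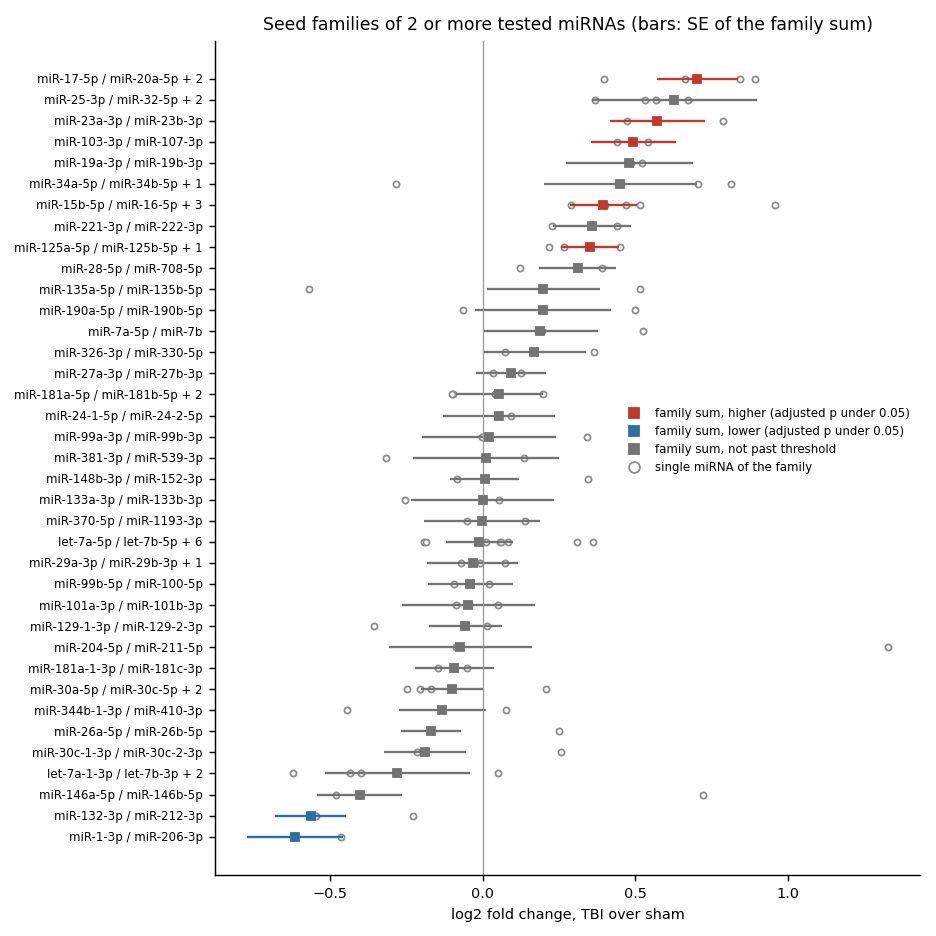
Each row is 1 of 37 seed families with 2 or more tested miRNAs. Squares give the log2FC (TBI over sham) of the family's summed reads with its SE, coloured where adjusted p is under 0.05 (5 red, higher, and 2 blue, lower), and open circles give its single miRNAs, which spread widely in the miR-34, miR-135, miR-146 and miR-204/211 families.

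Next, both arms of each hairpin were compared, since a change in how the hairpin is made moves both arms alike while a change in strand selection or stability moves their ratio. In 100 hairpins with enough reads on both arms, the log2 ratio of 5p to 3p reads passed in none by limma (0.0%), with 10 (10.0%) at an unadjusted p under 0.05. By exact permutation test 9 (9.0%) lay under 0.05 before adjustment. The smallest p that 6 against 6 allow is 0.00216, which a single hairpin cannot carry past the adjustment over 100. The adjusted exact test could pass only if several hairpins had small p-values together. It gave no call, which says nothing about any single hairpin. For 72 of the 100 hairpins both arms had a log2FC of the same sign, and Pearson's r between the arms was 0.49 across hairpins, a description in which the arms share the libraries and their scaling. In 1 hairpin, miR-324, the arm with more reads differed between the groups, as the 5p arm gave 46.4% ± 5.51 of reads in TBI and 53.3% ± 8.49 in sham (SD, n = 6), a difference of the log2 ratio of -0.40 ± 0.26 (adjusted p = 0.651).

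The 11 hairpins with an arm past the threshold did not all behave alike. In miR-132 both arms fell, by 0.80 and 0.55 on the log2 scale for 5p and 3p. In miR-212 the 5p arm fell while miR-212-3p had a log2FC of -0.23. The lowest, median and highest share of 5p reads of miR-212 was 79.2, 85.1 and 91.1% in TBI and 85.6, 90.2 and 93.6% in sham, and the change of its log2 ratio was -0.62 ± 0.26 (adjusted p = 0.333). The other arm of miR-127, miR-127-5p, had a log2FC of -0.34, close to that of miR-127-3p, and miR-25-5p had one of 0.82. The log2FCs of miR-93-3p (0.56), miR-199a-5p (0.56), miR-339-3p (0.47) and miR-135a-5p (0.52) also had the sign of the called partner. miR-374-3p (-0.25) had the opposite sign, and miR-409a-5p (-0.01) and miR-146b-3p (-0.12) lay near 0. None of these ratios passed.

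The smallest p-values belonged to hairpins of which no arm had passed. In miR-361 the ratio changed by 0.91 ± 0.25 (adjusted p = 0.165) toward 5p, in miR-708, from an intron of the gene Tenm4, by 0.83 ± 0.25 (adjusted p = 0.165) and in miR-329, of the Dlk1-Dio3 cluster, by 0.58 ± 0.18 (adjusted p = 0.165). The 5p share of miR-329 was 60.2, 65.5 and 69.6% in TBI and 48.9, 56.4 and 59.4% in sham, and it was the 1 hairpin of 100 (1.0%) whose groups did not overlap. miR-361 and miR-708 passed when TBI rat 56 (with miR-374) or sham rat 55 (with miR-674) was left out, the 2 of 12 such fits that gave any call.

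**Figure D4:**
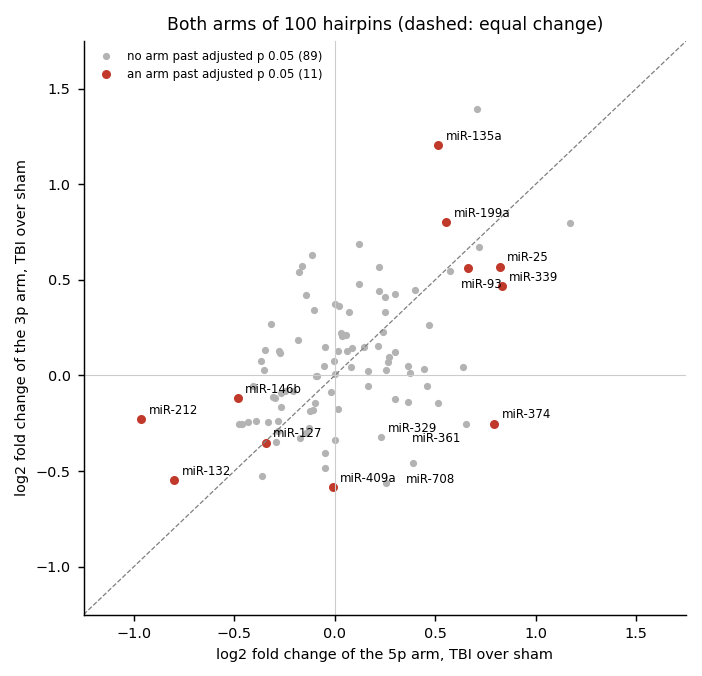
Each point is 1 of 100 hairpins, with the log2FC (TBI over sham) of its 5p arm on the horizontal and of its 3p arm on the vertical axis, red where an arm passed. miR-132 lies low on both axes, miR-212 low on the 5p axis, and miR-361, miR-708, miR-329 and miR-374 lie below the dashed line of equal change.

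The last comparison in cortex asked which tRNAs gave more or fewer fragments. Fragments were summed over all genes of an anticodon, since genes of 1 anticodon are near copies among which reads can be divided in ways not given in the sources used here. Of 46 anticodons tested together with the miRNAs, 4 passed in edgeR (8.7%), and all 4 rose, namely Ile-AAT, Asn-GTT, Arg-ACG and Phe-GAA. In each of the 4, every TBI rat lay above every sham rat, and no other anticodon of the 46 did so. All 4 passed in each of the 12 fits that left out 1 rat. They were scarce, together 0.289% of the tRNA reads. When the anticodons were scaled among themselves, without miRNAs, Phe-GAA was lost (adjusted p = 0.0670) and Ser-GCT fell by 0.54 on the log2 scale (adjusted p = 0.0487).

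Ile-AAT fragments were at 67.3, 97.5 and 127 CPM in injured rats against 28.5, 44.4 and 61.9 CPM in shams (here per 1000000 miRNA and tRNA reads), a log2FC of 1.09 ± 0.19 (adjusted p = 0.00458). All 7 tested genes of the 12 listed were above 0, from 0.46 to 2.19, and 1 of them, tRNA1652-IleAAT, passed alone. Asn-GTT fragments were at 193, 258 and 375 CPM in injured rats against 83.6, 129 and 163 CPM in shams, a log2FC of 1.04 ± 0.18 (adjusted p = 0.00458). Its 12 tested genes were not alike, as 5 passed, 9 were above 0 and the lowest was at -0.71. tRNA2846-AsnGTT gave 40.4% of the Asn-GTT reads and had a log2FC of 1.60 ± 0.20 (adjusted p = 0.000208).

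Arg-ACG fragments were at 31.0, 53.9 and 58.8 CPM in injured rats against 19.0, 22.7 and 30.3 CPM in shams, a log2FC of 1.08 ± 0.19 (adjusted p = 0.00458). Of its 3 tested genes tRNA4697-ArgACG and tRNA1630-ArgACG passed, at 1.13 and 1.15. Phe-GAA fragments were at 34.3, 45.1 and 52.9 CPM in injured rats against 18.0, 22.2 and 32.3 CPM in shams, a log2FC of 0.93 ± 0.18 (adjusted p = 0.00601). Its 4 tested genes lay between 0.61 and 1.61, and tRNA3805-PheGAA passed, from 1 to 9 reads per sham library. With the called genes left out, as a description without a test, Phe-GAA was at 33.9 ± 4.69 CPM in injured rats against 20.3 ± 4.32 CPM in shams, Ile-AAT at 64.3 ± 11.1 CPM in injured rats against 38.5 ± 10.1 CPM in shams and Arg-ACG at 20.4 ± 4.38 CPM in injured rats against 11.3 ± 3.98 CPM in shams. Asn-GTT without its called genes was at 73.6 ± 17.4 CPM in injured rats against 57.6 ± 17.3 CPM in shams (SD, n = 6). The genes left out were chosen by their change, so these values do not compare the anticodons. Of the 26 tested genes of the 4 anticodons 23 were above 0, and of all 274 tRNA features tested 164 were. The 4 anticodons passed on the summed reads of these same genes, so the first share is raised by that choice and cannot be set against the second.

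**Figure D5:**
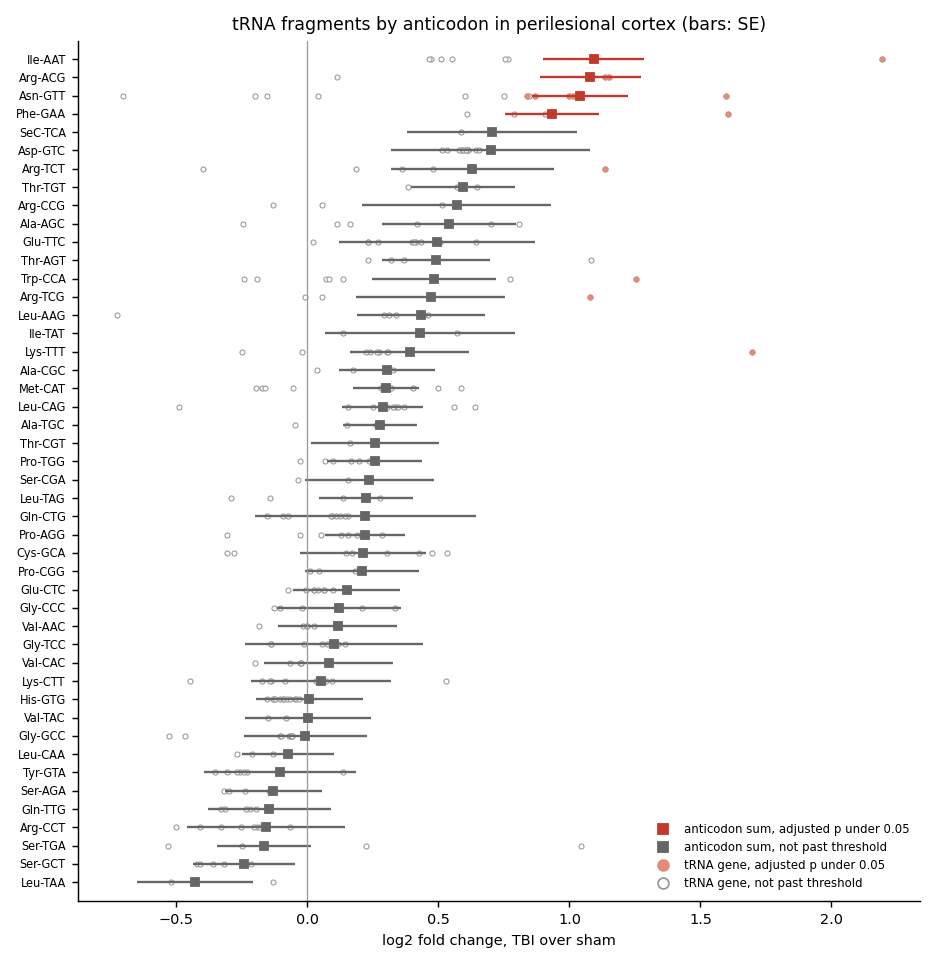
Each row is 1 of 46 anticodons, with squares and bars for the log2FC (TBI over sham) of the summed reads with its SE and small circles for its tested tRNA genes. The 4 anticodons past the threshold (red) are at the top, between 0.93 and 1.09, and single genes of Lys-TTT, Trp-CCA, Arg-TCG and Arg-TCT lie apart from the rest of their anticodon.

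Of 274 tRNA features tested singly, 13 passed (4.74%), all of them higher in injured rats, and in 10 (3.65%) the groups did not overlap with TBI above. Among the 13, 9 were genes of the 4 anticodons. The other 4 were single genes of anticodons whose sum did not pass. tRNA5177-LysTTT was at 19.4, 21.6 and 26.9 CPM in injured rats against 3.98, 6.49 and 12.3 CPM in shams, without overlap, with a log2FC of 1.70 ± 0.24 (adjusted p = 0.000606), while all Lys-TTT genes together had one of 0.39 ± 0.23 (adjusted p = 0.298). tRNA11179-TrpCCA was at 10.5, 17.2 and 23.4 CPM in injured rats against 3.75, 6.69 and 10.4 CPM in shams, with a log2FC of 1.25 ± 0.27 (adjusted p = 0.0207), against 0.48 for all Trp-CCA genes. tRNA3877-ArgTCG and tRNA6477-ArgTCT had log2FCs of 1.08 ± 0.25 (adjusted p = 0.0246) and 1.13 ± 0.27 (adjusted p = 0.0246). With a minimum mean of 50 reads tRNA2846-AsnGTT was the single call, as the other 12 had fewer reads and were not tested, and library size scaling gave 28, all higher. The count fell to 7 without TBI rat 24 or 45 and to 6 without sham rat 50.

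The abundant tRNA fragments did not pass. Gly-GCC, the largest source, gave 40.7% ± 1.77 of tRNA reads in TBI and 43.8% ± 2.88 in sham (SD, n = 6), with a log2FC of -0.01 ± 0.23 (adjusted p = 0.992). Glu-CTC was at 21609 ± 6193 CPM in injured rats against 19480.1 ± 4116 CPM in shams and Lys-CTT at 15019.5 ± 5583 CPM in injured rats against 14488 ± 4331 CPM in shams (SD, n = 6). Glu-TTC and Gly-CCC had log2FCs of 0.50 ± 0.37 (adjusted p = 0.429) and 0.12 ± 0.24 (adjusted p = 0.830). The spread between rats was wide for these, and the SE of their log2FCs ran from 0.20 to 0.37. Changes well above 1 SE could also go uncalled, as Thr-TGT, with a log2FC of 0.59 ± 0.20, had an adjusted p of 0.0964 in edgeR. Of the 46 anticodons 37 were above 0, at a median log2FC of 0.25, and the median was -0.09 when anticodons were scaled among themselves. Leu-TAA was the lowest at -0.43 ± 0.22 (adjusted p = 0.262).

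Finally, the injury effect in cortex was set against that in thalamus of the same rats in 1 fit of 24 libraries. Of 407 miRNAs tested for a difference between the regions none passed in edgeR (0.0%), where 17 (4.18%) lay under 0.05 before adjustment, and DESeq2 also gave none, with 18 such miRNAs. Among the 22 cortical calls 4 had an unadjusted p under 0.05. These 22 were chosen by their change in cortex, which is part of the difference, so their share cannot be set against the 4.18%. Of the 22, 21 had a log2FC of the same sign in thalamus. The share over all tested miRNAs was not counted, and both regions came from the same rats and 1 fit. The 21 are therefore a description and not a replication. The log2FCs of miR-132-5p were -0.84 in cortex and -0.33 in thalamus (adjusted p = 1.000 in edgeR for the difference). Those of miR-212-5p were -0.998 in cortex and -0.26 in thalamus, and those of miR-375-3p 1.74 in cortex and 0.05 in thalamus. For miR-130b-5p they were -0.73 in cortex and 0.02 in thalamus. Values were closer for others, as miR-17-5p was at 0.84 in cortex and 0.75 in thalamus and miR-1-3p at -0.66 in cortex and -0.87 in thalamus. None of the cortical changes was thus shown to be particular to cortex.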

How the data were processed

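Small RNA of 6 TBI and 6 sham cortices, 1 library per rat, was analysed from the deposited counts. Per the study's methods, the authors made the raw counts by trimming adapters, checking reads with FastQC, mapping them to the rat genome RGSC3.4 and annotating miRNAs with miRBase 20 (aligner and handling of reads that map to several places not given in the sources used here). The authors also deposited CPM, which were found to be these counts times 1 constant per library over the kept features, so only counts were tested.

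miRNAs (filterByExpr), seed families, tRNA features and anticodon sums (both kinds of tRNA table fitted with miRNAs) were compared with edgeR 4.0.16 (TMM, robust quasi-likelihood, R 4.3.3), SE being the absolute log2FC over the root of F. Arm ratios, log2 of (reads + 0.5), were compared with limma 3.58.1. P-values were Benjamini-Hochberg adjusted within each table, with a threshold of 0.05. Single values had two-sided exact permutation tests. Fits were tested on simulated data. Alternatives were DESeq2 1.42.0, library size scaling, other filters, other sets of features or libraries, and leaving out each rat. The fits without the robust option and the seed families with unsequenced relatives placed by name were added after seeing the data. RefSeq gave mature sequences of 655 of 728 miRNAs, and each of the other 73 was counted as a family of its own. Named features were those past the threshold, their other arms, family and list members, the 10 miRNAs and 5 anticodons with the largest means, the 2 most abundant members of each list and the 4 normalizers. Hairpins with the smallest p-values, miR-324, Lys-TTT, Trp-CCA, Leu-TAA and Ser-GCT were named after their values were seen. The comparison and the lists were chosen with earlier results of these data known. Each rat also gave a thalamus library, so rats pair the regions. Deviations from group means of the 2 libraries of a rat correlated with a median r of 0.355 (-0.165 to 0.621, above 0.1 in 8 of 12 rats).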

Additional observations from a re-analysis of the deposited data

Results flagged for a closer look

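In 6 of 98 sets of 6 values (the features past the threshold, in either group) 1 rat lay far from the other 5, and chance gives about 1 in 20 such sets, or 4.9. miR-375-3p was at 89.7 CPM in TBI rat 45, where the next highest TBI rat had 41.8 CPM. miR-543-3p was at 1978 CPM in TBI rat 22, below the next at 2392 CPM. tRNA7267-AsnGTT stood at 8.76 CPM in sham rat 50, above the next at 7.11 CPM. tRNA9441-AsnGTT stood at 17.3 CPM in TBI rat 22, above the next at 13.6 CPM. Arg-ACG was at 31.0 CPM in TBI rat 63, below the next at 49.2 CPM and nearest to the shams. The family of miR-1-3p and miR-206-3p was at 444.9 CPM in sham rat 32, below the next at 640.4 CPM and within the range of the injured rats.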

How the results depend on the processing

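The count of miRNAs was 22, and 35 with DESeq2 (18 shared, and the other 4, miR-375-3p, miR-211-5p, miR-135a-3p and miR-130b-5p, had no adjusted p there), 39 with library size scaling (14 shared), 5 with all 24 libraries in 1 fit (4 shared) and 4 to 30 when each rat was left out. The 13 tRNA features became 28 with library size scaling, 1 with a mean of at least 50 reads and 6 to 14 without 1 rat. The 22 families became 12 with no filter, 11 with a mean of at least 50 reads and 6 to 20 without 1 rat. Arm ratios gave 0 to 3 calls and anticodons 4 to 6 without 1 rat. The difference in miRNA reads (TBI minus sham) ran from -611265.5 to 53678.5 without 1 rat, above 0 only without sham rat 32, and that in the share of miR-128-3p from -9.28 to -6.89 and in the tRNA share from 1.22 to 3.54 percentage points. No miRNA, family, anticodon or tRNA feature past the threshold changed sign under any alternative that gave it a value, while some named miRNAs near 0 that did not pass did (miR-29a-3p and miR-143-3p with library size scaling, the 4 normalizers with tRNA features in the fit). Over the alternatives that kept all rats 132 calls of miRNAs held and 37 were lost, against 104 and 23 for families, 23 and 1 for anticodons and 61 and 5 for tRNA features. The cause of each change was not tested. The fit with all libraries also held thalamus, and the stricter filter left some scarce features untested, while 6 calls that it still tested were lost. With the rat as replicate block, the region difference had 0 calls, as without it. Reads limit the scarce miRNAs and tRNA genes, and abundant tRNA fragments are limited by the spread between rats.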
